A study of Mus musculus with 7 samples.

Results

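The genes described here encode the enzymes that use up ceramide or its backbone. They were chosen by name and role: the ceramidases *Asah1*, *Asah2*, *Acer2* and *Acer3*, the sphingosine kinases *Sphk1* and *Sphk2*, the ceramide kinase *Cerk*, the glucosylceramide synthase *Ugcg*, and the sphingomyelin synthases *Sgms1* and *Sgms2*. Of these 10 genes, 9 have a row in the table of 22877 genes, and *Sphk1* was not analysed here. RNA was sequenced from oocytes taken out of secondary follicles of C57BL/6J females at 8 weeks of age, with 5 oocytes pooled in each library. There were 4 WT libraries and 3 libraries from mice carrying floxed *Mfn1* alleles together with a Cre transgene under the *Zp3* promoter. That promoter is active in growing oocytes, so *Mfn1* is deleted in the oocyte and not in the surrounding granulosa cells, and these oocytes are called Mfn1-/-. WT littermates were the controls.

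Ceramide is a membrane lipid that is also known as a signal for cell death. A cell removes it in several ways. Ceramidases split it into sphingosine and a fatty acid, sphingosine kinases then turn the sphingosine into sphingosine 1-phosphate, ceramide kinase makes ceramide 1-phosphate, and 2 kinds of transferase build it into glucosylceramide or sphingomyelin. The study looked at ceramide in these oocytes by staining, and the comparison asked here is whether the transcripts of the enzymes on the removing side differed between the genotypes.

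The table gives 1 value per gene and genotype, which is the authors' mean of normalized counts over the libraries, on a scale not given in the sources used here. With genotype means alone, neither an error nor a test can be given for any gene, and the depth behind each value is unknown. Every difference below is therefore one between 2 means, and where a pair of values is given, WT comes first and Mfn1-/- second. *Mfn1*, the gene that was deleted, had a mean of 0.616 in WT and 0.0577 in Mfn1-/- oocytes, 10.7-fold lower. Oocyte markers were abundant, with *Ooep*, a gene of the maternal complex beneath the oocyte membrane, at 1120 in WT and 1310 in Mfn1-/- oocytes, while the 14 granulosa cell markers with a row summed to 3.56 and 3.27. The lowest mean in the table is 0.01, and log2 fold changes were computed after adding a pseudocount of 0.1, which understates differences of low genes. A gene is called when its log2 fold change reaches a 2-fold difference. Under this rule 4.89% of all 22877 genes were called higher in Mfn1-/- oocytes and 7.65% were called in either direction, 1118 genes higher and 631 lower. Genes with a mean of at least 1 had a median of 0.16, and once all fold changes were centred on it, 818 genes were called higher and 916 lower.

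Of the 9 enzymes, 1 was called, the acid ceramidase gene *Asah1*, which was higher in Mfn1-/- oocytes. This is 11.1% of the enzymes, the smallest share above 0 that 9 genes allow, so the count alone does not set the enzymes apart from all genes. *Asah2*, *Acer2* and *Cerk* could hardly be called, as 0% of genes within 2-fold of their means were. The median log2 fold change of the 9 enzymes was 0.07, beside 0.04 over all genes. By the means themselves, 6 enzymes were higher and 3 lower in Mfn1-/- oocytes, but after centring 2 were higher and 7 lower, as *Acer2*, *Cerk*, *Ugcg* and *Sgms1* moved below 0, *Sgms1* also with equal sums of means. The centring value came from genes with a mean of at least 1, while the highest mean of an enzyme was 0.584. Genes within 2-fold of their means had medians of 0.001 (*Acer2*), 0.002 (*Cerk*), 0.09 (*Ugcg*) and 0.03 (*Sgms1*). Centring thus lowered these 4 by more than the shift at their level. The summed means of the 9 enzymes were 1.40 in WT and 1.93 in Mfn1-/- oocytes, a ratio of 1.38, and without *Asah1* the ratio was 1.07. Most of the difference in the sum thus came from 1 gene.

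**Figure D1:**
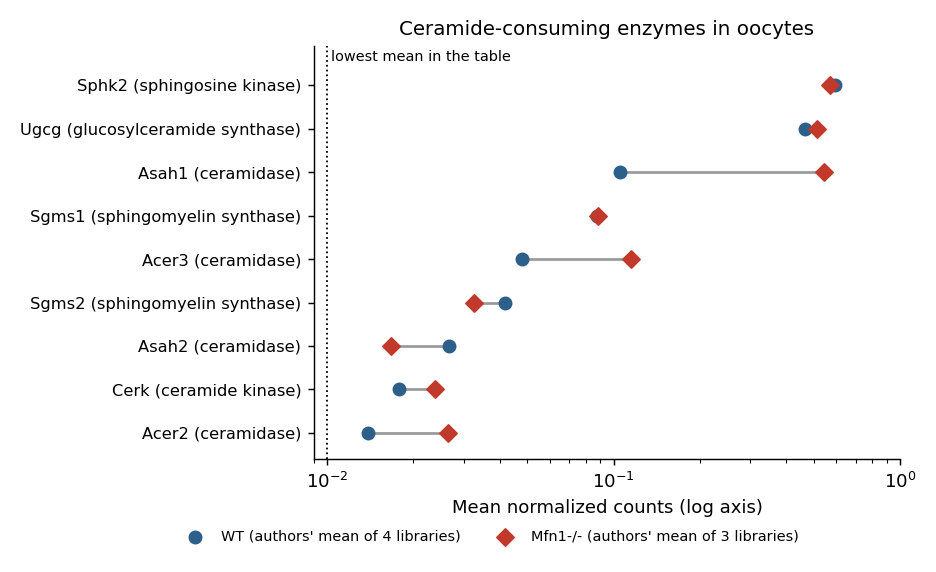
Authors' means of normalized counts (log axis) of the 9 enzymes, with circles for WT and diamonds for Mfn1-/- oocytes, joined by a line for each gene. Only genotype means are plotted, with no error bars. *Asah1* has the longest line, from 0.105 to 0.544, while the circle and diamond of *Sgms1*, *Sphk2* and *Ugcg* lie close together.

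Acid ceramidase, the product of *Asah1*, splits ceramide inside the lysosome. The mean of *Asah1* was 0.105 normalized counts in WT and 0.544 in Mfn1-/- oocytes. The Mfn1-/- mean of *Asah1* was 5.18 times its WT mean, and the log2 fold change was 1.65 with the pseudocount. Of the 4679 genes whose mean over the 7 libraries was within 2-fold of that of *Asah1*, 97.2% had a smaller log2 fold change, and 9.25% were called higher. *Asah1* thus stood in the upper tail of genes of its level, and was not alone there. The gene lies on the minus strand of chromosome 8 of GRCm38, from 41340197 to 41374773 (GENCODE M21). No annotated gene overlaps it, and 0 other genes share a stretch of at least 75 bases with its transcripts at 95% identity or more.

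The other 3 ceramidases had lower means and did not pass the threshold. *Acer3* encodes an alkaline ceramidase of the endoplasmic reticulum and Golgi. Its mean was 0.0479 in WT and 0.115 in Mfn1-/- oocytes, a ratio of 2.40, and its log2 fold change was 0.54 with the pseudocount. It would count as called without a pseudocount, a setting in which 12.8% of all genes were called higher and 21.1% in either direction, and in which 2 of the 9 enzymes, *Asah1* and *Acer3*, were called. Among the 4918 genes of similar mean, 84.7% had a smaller log2 fold change than *Acer3*. Its longest principal transcript has 11340 bases. Stretches of at least 75 bases at 95% identity or more were found in transcripts of 121 other genes, the longest of 1691 bases, so reads of *Acer3* may have been divided among them. *Ugcg* shared such stretches with 78 other genes, *Sgms2* with 26, *Acer2* with 4, *Sphk2* with 2 and *Sgms1* with 1. For *Asah2* and *Cerk* the number was 0.

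*Acer2* encodes an alkaline ceramidase of the Golgi. Its means of 0.0139 in WT and 0.0265 in Mfn1-/- oocytes were both close to the lowest mean in the table, and its log2 fold change was 0.15. *Asah2* encodes neutral ceramidase, which sits in the plasma membrane. It ran the other way, with means of 0.0266 in WT and 0.0167 in Mfn1-/- oocytes and a log2 fold change of -0.12. So 3 of the 4 ceramidases had the higher mean in Mfn1-/- oocytes, or 2 of the 4 after centring, which put *Acer2* at -0.01. Genes within 2-fold of the mean of *Acer2* had a median of 0.001, so centring took off more than the shift at its level. The 4 ceramidase means summed to 0.193 and 0.702, a ratio of 3.63, to which *Asah1* contributed most. *Acer1*, the remaining alkaline ceramidase gene, had means of 0.0136 and 0.0197 and a log2 fold change of 0.08.

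Sphingosine freed by the ceramidases is phosphorylated by the sphingosine kinases. *Sphk2*, whose product is found in the nucleus and in mitochondria, had the highest WT mean of the 9 enzymes. It stood at 0.595 in WT and 0.569 in Mfn1-/- oocytes, with a ratio of 0.956 and a log2 fold change of -0.06. Both means lay within a few percent of each other. *Sphk2* (chromosome 7, 45709467 to 45718002) overlaps 2 genes on the opposite strand, *Rpl18* and *Dbp*, and the library kit does not mark the strand. *Rpl18*, a ribosomal protein gene with means of 9.06 and 11.7, shares 373 of the 4159 exonic bases of *Sphk2*. *Dbp*, a transcription factor gene with means of 0.141 and 0.315, shares 539. Reads from these stretches cannot be told apart, and their part in the *Sphk2* value was not tested.

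The genes that act on ceramide directly, without splitting it, were also similar between genotypes or very low. *Cerk*, the ceramide kinase gene, had means of 0.0178 in WT and 0.0239 in Mfn1-/- oocytes and a log2 fold change of 0.07. *Ugcg* makes glucosylceramide, the first step toward most glycosphingolipids. Its means of 0.464 and 0.513 gave a ratio of 1.11 and a log2 fold change of 0.12. *Sgms1*, the sphingomyelin synthase of the Golgi, had means of 0.0874 and 0.0882, a ratio of 1.01, the smallest difference of the 9 enzymes. *Sgms2*, the sphingomyelin synthase of the plasma membrane, had means of 0.0417 and 0.0326 and a log2 fold change of -0.10. None of these 4 genes was called. *Sgms1* (chromosome 19, 32122727 to 32389714) and *Asah2* (31982597 to 32108211) are neighbours on the same strand, with 14515 bases between them. *Sgms1* also overlaps the start of the noncoding gene *2700046G09Rik* on the opposite strand, whose means were 0.452 and 0.856.

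**Figure D2:**
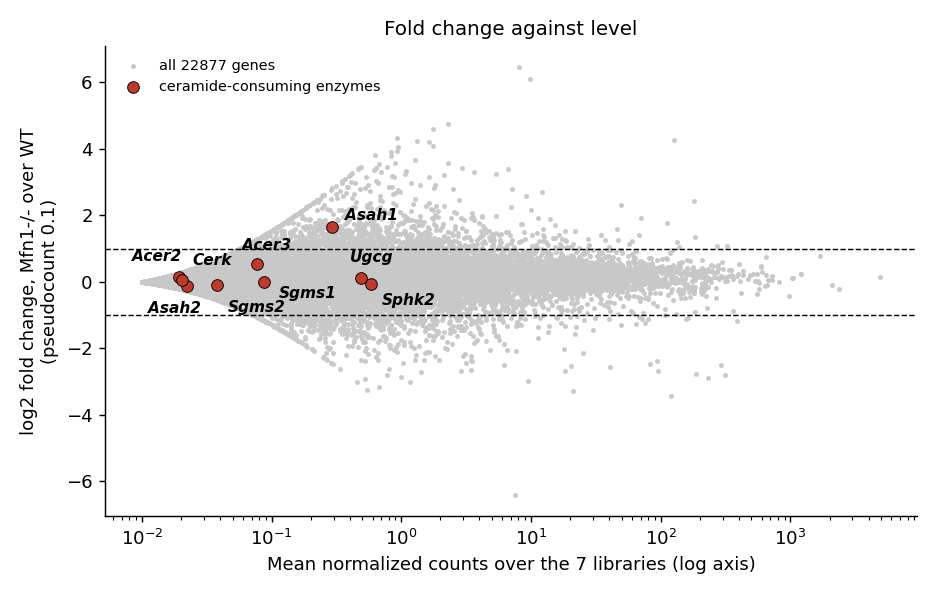
Log2 fold change of Mfn1-/- over WT oocytes with a pseudocount of 0.1, against the mean normalized counts over the 7 libraries (log axis). Grey points are all 22877 genes, red points the 9 enzymes, and dashed lines a 2-fold difference. *Asah1*, at 1.65, is the only enzyme outside the dashed lines, and the enzymes at the lowest means lie where the pseudocount keeps every gene near 0.

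Most of the enzymes were expressed at low levels. In the deposited means, *Sphk2* stood above 65.9% of the genes in the table, *Ugcg* above 63.35%, *Asah1* above 56.4% and *Acer2* above 13.6%. The mean over libraries was under 0.1 for 6 of the 9, and at means within 2-fold of those of *Asah2*, *Acer2* and *Cerk* 0 genes of the table were called in either direction. To compare levels between genes, the means were divided by the length of the longest principal transcript. Whether the deposited values already take length into account is not given in the sources used here. If they do, the orders, shares and values per kilobase given here are biased by length. In WT oocytes the order per kilobase was *Sphk2* (0.168 normalized counts per kilobase), *Ugcg* (0.116), *Asah1* (0.0379), *Sgms1* (0.0217) and *Sgms2* (0.00719), followed by *Acer3*, *Cerk*, *Asah2* and *Acer2* between 0.00422 and 0.0033. In Mfn1-/- oocytes *Asah1* came first (0.196), before *Sphk2* (0.160) and *Ugcg* (0.128), and *Asah2* was last (0.00237). *Asah1* made up 10.4% of the summed level per kilobase of the 9 enzymes in WT and 36.6% in Mfn1-/- oocytes. With the means as deposited, *Asah1* moved from the third to the second place, behind *Sphk2*. With no spread between libraries, it cannot be said which neighbours in these orders differ.

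A set of 55 genes around them was named from the pathway, and 46 had a row. Of these, 3 were called higher and 2 lower, and the median log2 fold change was 0.07. Over all genes 4.89% were called higher and 7.65% in either direction, and the median was 0.04. The lists below hold few genes each, and their counts are to be read beside these shares. *Degs1*, the desaturase that makes the final double bond of ceramide, had 42.1 normalized counts per kilobase in WT and 39.8 in Mfn1-/- oocytes (deposited means of 86.2 and 81.5). *Smpd1*, the acid sphingomyelinase gene, had 3.62 and 3.41 per kilobase. Others of the producing side were as low as the consuming enzymes, such as the ceramide synthase gene *Cers4* with 0.00285 per kilobase in WT and 0.0117 in Mfn1-/- oocytes. Of the 12 genes of de novo synthesis with a row, 2 were called lower and 0 higher, but at 1.5-fold 4 were higher and 2 lower, and without a pseudocount 1 was higher, *Cers4* (0.027 and 0.111), and 3 lower. Both genes called with the pseudocount belong to serine palmitoyltransferase, which catalyses the first step. *Sptssb* had means of 0.375 in WT and 0.0604 in Mfn1-/- oocytes, and *Sptlc2* 0.896 and 0.334. In the same list *Cers2*, a ceramide synthase gene, had means of 7.14 and 11.2, and *Sptssa*, another small subunit, 3.01 and 5.29, and neither was called.

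The ORMDL proteins hold serine palmitoyltransferase in check. All 3 of their genes had a higher mean in Mfn1-/- oocytes. *Ormdl2* was called, with means of 0.376 and 1.29 and a log2 fold change of 1.55. *Ormdl1* (6.30 and 9.29) and *Ormdl3* (0.0916 and 0.207) were not. Of the 4 sphingomyelinase genes with a row, *Smpd2*, a neutral sphingomyelinase gene that releases ceramide from sphingomyelin, was called higher with means of 1.17 and 2.59, though not after centring or with equal sums of means, and *Smpd1* (8.72 and 8.22) and *Smpd4* (0.534 and 0.514) were not called. A list of the remaining ceramidase gene *Acer1* with carriers and other transferases of ceramide had 0 called of 5, with *Cptp*, which carries ceramide 1-phosphate, at 4.02 and 5.92. *Samd8* (0.492 and 0.329) and *Col4a3bp*, the carrier of ceramide from the endoplasmic reticulum to the Golgi (0.221 and 0.153), had lower means in Mfn1-/- oocytes.

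The genes just downstream of the consuming enzymes showed no called difference with the pseudocount of 0.1. After *Ugcg*, the 4 glycosyltransferase genes with a row had 0 called, among them *B4galt6* (0.849 and 0.587), *A4galt* (0.728 and 1.14) and *St3gal5* (0.386 and 0.340). After *Sphk2*, the 8 genes for the fate of sphingosine 1-phosphate had 0 called as well. Their means went down to 0.0124, where the pseudocount keeps fold changes near 0. Without a pseudocount 1 was called higher, *Sgpl1* (0.0227 and 0.0504), beside 12.8% of all genes. With the lowest mean subtracted 2 were called higher, beside 15.6% of the genes with both means above it. Their most abundant members were the receptor gene *S1pr3* (0.762 and 0.672), the dehydrogenase gene *Aldh3a2* (0.246 and 0.234) and the phosphatase gene *Sgpp1* (0.133 and 0.166).

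The steps that work beside acid ceramidase, mostly in the lysosome, break glycosphingolipids down to ceramide. Of 10 such genes, 7 were on the higher side in Mfn1-/- oocytes and 1 was called, beside 7.65% of all genes called in either direction. Their median log2 fold change was 0.26, beside 0.04 over all genes and 0.16 over genes with a mean of at least 1. The called gene was *Neu1*, the lysosomal sialidase gene, with means of 1.55 in WT and 6.31 in Mfn1-/- oocytes and a log2 fold change of 1.96.

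**Figure D3:**
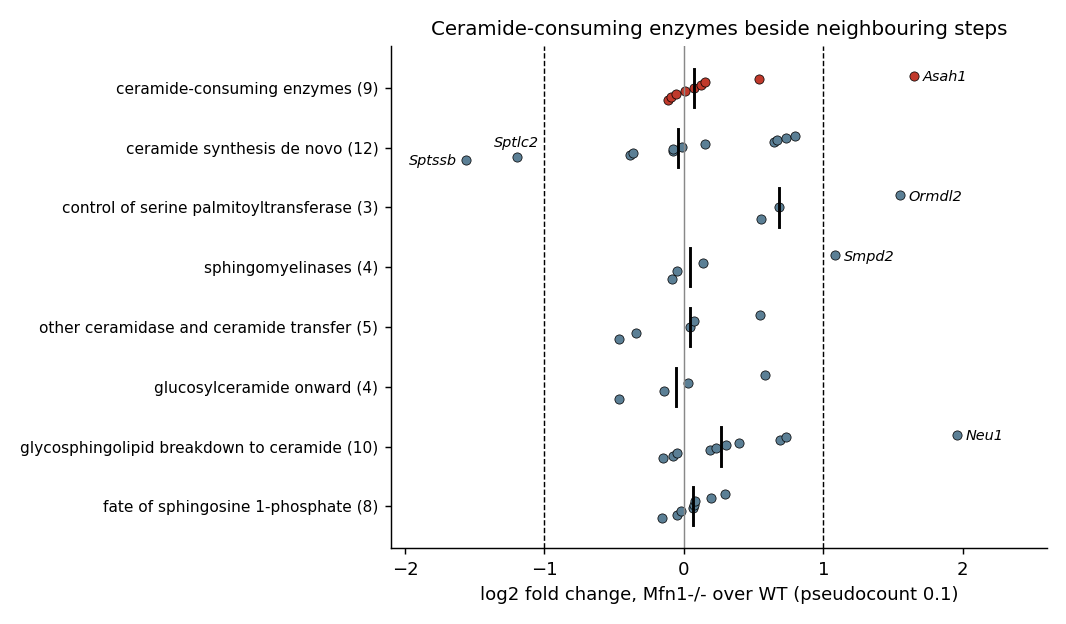
Log2 fold changes of Mfn1-/- over WT oocytes (pseudocount 0.1) for the 9 enzymes, in red, and for the lists of neighbouring steps, with the number of genes in brackets. Each point is a gene, the vertical bar is the median of the list and dashed lines mark a 2-fold difference. The called genes are named: *Asah1*, *Ormdl2*, *Smpd2* and *Neu1* on the higher side, and *Sptssb* and *Sptlc2* on the lower side.

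Across the granulosa, theca and stroma, and blood and immune markers, 1 gene was called. This was *Cd68*, a lysosomal membrane protein gene used as a macrophage marker. Its means were 0.672 in WT and 7.58 in Mfn1-/- oocytes, a ratio of 11.3, and its log2 fold change was 3.31 with the pseudocount. *Asah1* and *Neu1* were called higher in the same genotype, but genotype means cannot show whether the same libraries carried these differences. Of the 7 blood and immune markers 3 had a row, and their sum of 0.772 and 7.62 was nearly all *Cd68*. The other two had lower means in Mfn1-/- oocytes, the hemoglobin gene *Hba-a2* at 0.0793 and 0.0285, while *Lyz2* was at the lowest mean of the table in Mfn1-/- oocytes (0.01, beside 0.0203 in WT). The part of other cells in the *Asah1* difference was not tested. Granulosa markers had means over libraries between 0.0121 and 1.46, with 4 of 14 higher and 10 lower in Mfn1-/- oocytes. Of these markers 0 were called, but the pseudocount keeps fold changes of low genes near 0. The most abundant granulosa markers ran in opposite directions, *Esr2* at 1.86 and 0.929 and *Inha* at 0.954 and 1.87. At lower means, *Hsd17b1* (0.152 and 0.0412) and *Cyp19a1* (0.193 and 0.0846) were lower in Mfn1-/- oocytes, and *Foxl2* (0.0183 and 0.0525) was higher. The 5 theca and stroma markers with a row summed to 0.116 and 0.138, and *Cyp11a1* was the highest. In pooled oocytes, fewer cells of a type and less RNA per cell cannot be told apart.

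How low means are treated set the size of most differences of the enzymes. Adding or subtracting the same constant cannot change which mean is larger, so these treatments did not test the directions. Every total over the 7 libraries in the table is at least 0.0702, just above the 0.07 that 7 libraries at the lowest mean would give. Whether a constant was added to each library is not given in the sources used here. With 0.01 taken off both means, an alternative added after seeing the data, the ratio of *Asah1* was 5.62, that of *Acer3* 2.77 and that of *Acer2* 4.23, while *Asah2* had a ratio of 0.404. These 4 enzymes then passed 2-fold, 3 higher and 1 lower, in a setting where 15.6% of the 21018 genes with both means above the lowest were called higher and 26.5% in either direction. *Acer2* then rested on 0.0039 in WT against 0.0165 in Mfn1-/- oocytes, and *Asah2* on 0.0166 against 0.0067. *Ugcg* (1.11), *Sphk2* (0.956) and *Sgms1* (1.01) hardly moved.

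**Figure D4:**
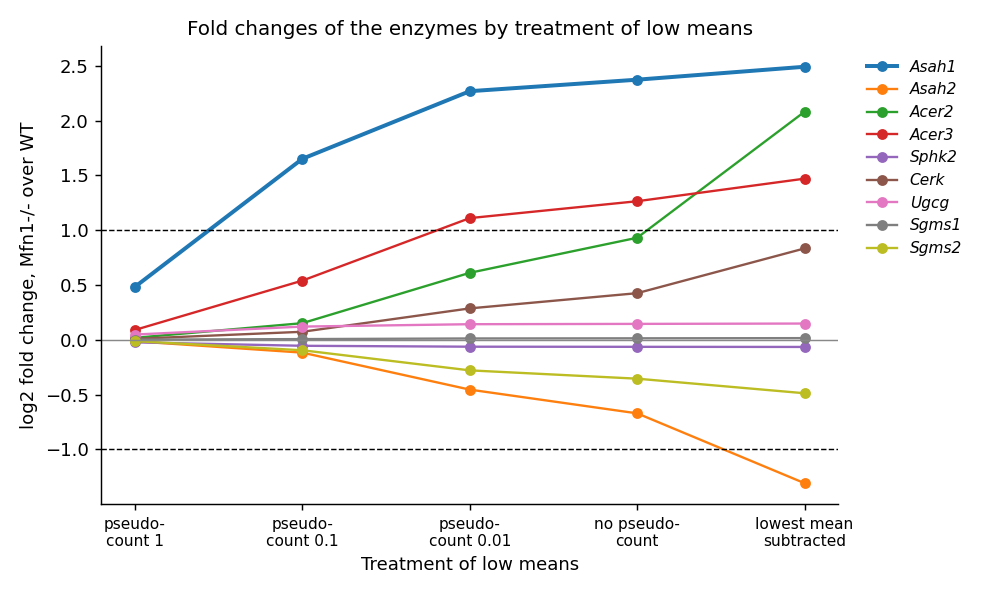
Log2 fold change of Mfn1-/- over WT oocytes for each of the 9 enzymes under 5 treatments of low means, from a pseudocount of 1 on the left to subtraction of the lowest mean on the right. Dashed lines mark a 2-fold difference. *Asah1* runs from 0.48 to 2.49 and stays the highest throughout, *Acer2* and *Asah2* spread apart only on the right, and *Sphk2*, *Ugcg* and *Sgms1* stay near 0.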

How the data were processed

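Poly(A) RNA of 5 pooled oocytes per library was amplified with Smart-Seq2 and made into Nextera XT libraries. Per the study's methods and processing notes, reads were trimmed with Cutadapt, filtered, aligned to GRCm38/mm10 with STAR and counted on genes. For each gene the authors deposited a signal, namely normalized counts averaged within a genotype, and their total. In 100% of genes that total was, within 1%, what 4 WT and 3 Mfn1-/- libraries at these averages add up to. The normalization, the annotation and the strand setting are not given in the sources used here. The table also holds the authors' own p-value, FDR, ratio and fold change per gene, which were not used. Columns of per-sample values that were set aside numbered 0.

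Groups were taken from the sample titles. Log2 fold changes were computed across all genes from the means after adding a pseudocount of 0.1, and 2-fold differences were called. The planned fit on library values could not be made from genotype means. Genes named are the 10 enzymes, *Mfn1*, the highest gene of each marker list and, of each pathway list, the 3 highest and every called gene with a mean of at least 0.1. *Acer1*, *Cers4*, *Sgpl1*, *Lyz2*, *Hba-a2*, *Inha*, *Hsd17b1*, *Cyp19a1*, *Foxl2*, *Rpl18*, *Dbp* and *2700046G09Rik* were named after their values were seen. Some genes of these lists that the rule would name are not reported here. The enzymes and lists were chosen with earlier results of these data known. Positions, overlaps and transcript lengths came from GENCODE M21, and shared sequence from blastn 2.17.0. The code was tested on simulated data. Python 3.11.15, numpy 2.4.6, pandas 2.3.3 and matplotlib 3.10.9 were used.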

Additional observations from a re-analysis of the deposited data

How the results depend on the processing

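The log2 fold change of *Asah1* ran from 0.48 with a pseudocount of 1 to 2.49 with the lowest mean subtracted. It fell short of 2-fold only with the pseudocount of 1. Of the treatments tried, only centring and equal sums of means could have changed its direction. *Asah1* stayed higher in Mfn1-/- oocytes in both, at 1.49 and 1.56. The number of the 9 enzymes called was 1 and became 2 with 0.01 as pseudocount, 0 with 1, 2 with no pseudocount and 4 with the lowest mean subtracted (3 higher and 1 lower). The last 2 settings were chosen after seeing the data. Over all 22877 genes, 1749 were called with a pseudocount of 0.1, 3922 with 0.01, 321 with 1, 4831 with none, 4419 at 1.5-fold and, with the lowest mean subtracted, 5566 of the 21018 with both means above it. Of the 46 pathway genes, 5 were called, and in the alternatives 8 (pseudocount 0.01), 1 (pseudocount 1), 12 (1.5-fold), 10 (no pseudocount) and 13 (lowest mean subtracted). *Mfn1* had a log2 fold change of -2.18, and -0.61 with a pseudocount of 1.

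Expressed genes, those with a mean of at least 1, had a median log2 fold change of 0.16, and no enzyme reached that mean. With that shift subtracted, 2 enzymes, *Asah1* (1.49) and *Acer3* (0.38), were above 0 and 7 below, and of all called genes 818 were higher and 916 lower, beside 1118 and 631. *Smpd2* was then not called. No paired analysis was possible because the table holds only genotype means, and leaving out each library was not run for the same reason. Depth, replicate spread and library outliers are unknown.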
